A study of Mus musculus with 4 samples.

Results

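The genes described here are the zinc finger genes of the Zfp series, taken as every row of the deposited table whose gene name starts with Zfp followed by a digit. Zfp36, Zfp36l1 and Zfp36l2 are left out by that rule, since their proteins bind RNA, and of these only Zfp36 is in the table. The rule gave 50 genes of the 2979 in the table, against 391 protein-coding genes that carry such names in the GENCODE M21 annotation of the mouse build GRCm38. The rule uses names only and no measured value.

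The libraries hold total RNA of fibroblasts, which build the extracellular matrix, taken fresh from the lungs of BALB/c mice. All mice were 4 weeks old and wild-type. In 2 libraries the cells are labelled control, and in 2 they had received 3 recombinant human chemokines over 3 hours, namely 8 nM of CXCL1, 2 nM of CXCL2 and 20 nM of CXCL8. These chemokines are best known for drawing neutrophils to inflamed tissue. The labels do not say whether the libraries of a group came from separate mice or cultures, so every p-value measures only the spread between these libraries, which may be technical.

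A C2H2 zinc finger is a short loop of protein held by a zinc ion between a pair of cysteines and a pair of histidines. Strings of such fingers read DNA sequence, and genes that encode them form the largest family of transcription factor genes in mammals. Many of these proteins also carry a KRAB box, which recruits the co-repressor Trim28. Trim28 in turn brings in the histone methyltransferase Setdb1 and heterochromatin proteins, and in mouse this machinery is best known for silencing retroelements and keeping imprints. Other Zfp proteins have no KRAB box and act at promoters, in chromatin complexes or on RNA.

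The finger is shown here as coding sequence because it is what unites these genes. Each line gives the 63 bases that encode the first finger with the canonical spacing in the longest annotated coding sequence, 5′ to 3′, with the codons of the cysteines and histidines that hold the zinc in capitals. The 4 genes are the KRAB genes Zfp626, Zfp871 and Zfp445, which had the lowest log2 fold changes, and Zfp809, the highest expressed Zfp gene. The sequences are from the GENCODE M21 transcripts, on chromosome 7 for Zfp626, 17 for Zfp871 and 9 for Zfp445 and Zfp809.
Zfp626: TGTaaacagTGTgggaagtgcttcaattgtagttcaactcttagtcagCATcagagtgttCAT
Zfp871: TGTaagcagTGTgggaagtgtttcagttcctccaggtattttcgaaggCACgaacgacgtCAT
Zfp445: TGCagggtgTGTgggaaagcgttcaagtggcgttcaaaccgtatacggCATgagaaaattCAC
Zfp809: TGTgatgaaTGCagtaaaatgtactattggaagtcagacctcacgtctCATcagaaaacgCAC

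The pattern searched for a finger was a cysteine, 2 to 4 residues, a cysteine, 12 residues, a histidine, 3 to 5 residues and a histidine. It was found in the translated coding sequences of 49 of the 50 genes, with a median of 10 matches a gene and a highest number of 37, in Zfp142. The exception was Zfp935, whose annotated coding sequences encode a KRAB box but no full finger. A KRAB box match, defined as a phenylalanine, any pair of residues, an acidic residue or glutamine, an acidic residue and a tryptophan, was found in 13 of the 50 genes. In the whole annotated series it was found in 191 of 391 genes (48.8%). A missing match says only that this pattern is not in the annotated coding sequences.

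How the genes of the table were selected is not given in the sources used here. In every one of its 2979 genes the values of the control and chemokine libraries do not overlap (100%), with 57.6% of genes lower and 42.4% higher in the chemokine libraries, so a count of Zfp genes that differ between the groups carries no information and the content lies in the direction and the size. Values are in RPKM, reads scaled by gene length and by library total. The implied library totals were 31859688 and 36863654 reads in control 1 and 2 and 28603764 and 33854493 in chemokine 1 and 2. The median Zfp gene had between 788 and 1288.5 implied reads a library and the lowest value was 120 reads. Read numbers are certain only for the 18 Zfp genes whose implied length equals the annotated one. Of the markers fixed for fibroblasts 5 of 9 are in the table (Col1a1, Col1a2, Col3a1, Dcn and Vim), with a summed level of 1483 to 1502 RPKM in the control and 1700 to 1722 RPKM in the chemokine libraries. Of 6 epithelial markers Krt18 and Sftpb are in the table (8.31 to 8.47 against 10.1 to 10.5 RPKM, summed), and of 5 endothelial markers Pecam1 and Sox18 (3.18 to 3.26 against 5.43 to 6.16 RPKM, summed). Their part in the results was not tested. None of 6 leukocyte and 2 mesothelial markers is in the table, and these were not analysed here.

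Nearly all Zfp genes of the table were lower in the chemokine libraries. Of the 49 with a mean of at least 1 RPKM, 47 fell and 2 rose in limma's moderated test on log2(RPKM + 1), at an adjusted p under 0.05. All 2956 genes tested passed that threshold (100%), 57.2% of them downward and 42.8% upward. A pass of a single gene therefore carries no information either. The adjusted p-values given below describe genes of a selected table and do not bound the share of false calls. The median log2 fold change, chemokine over control, was -0.32 for the Zfp genes and -0.23 for all genes tested. Among tested genes of the table that fell, the median was also -0.32. In RNA from a population of cells, fewer cells of a type and less RNA per cell cannot be told apart.

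**Figure D1:**
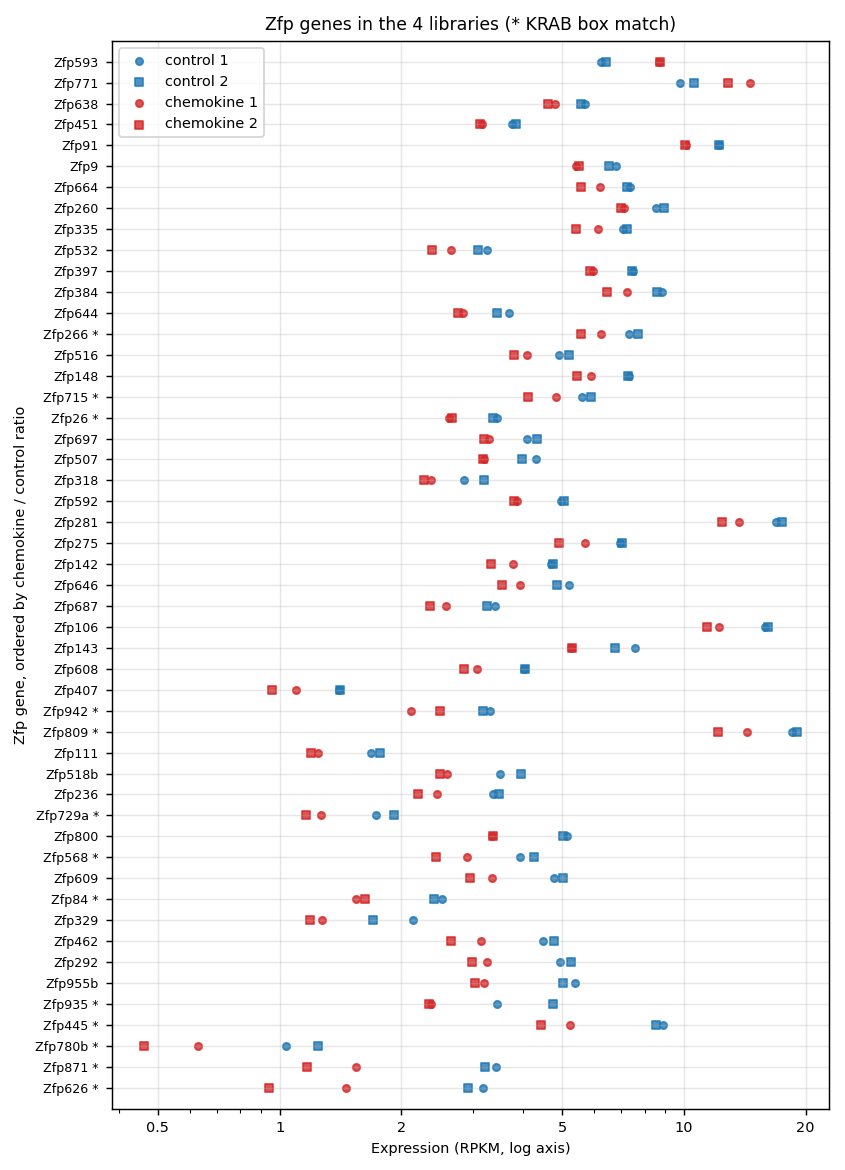
Expression of the 50 Zfp genes in RPKM (log axis) in control 1 and 2 (blue) and chemokine 1 and 2 (red), with genes ordered by the ratio of the group means and an asterisk at those with a KRAB box match. The chemokine values lie to the left of the control values in every gene except Zfp593 and Zfp771, at the top.

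The falls were mostly modest. The authors' deposited table gives the Zfp genes folds from 0.39 to 1.38 with a median of 0.75, against a median of 0.842 over all its genes. When limma was asked for a fold of at least 1.2, 9 of the 49 Zfp genes fell and none rose, against 10.5% of all tested genes downward and 3.28% upward. The 9 genes were Zfp626, Zfp871, Zfp445, Zfp935, Zfp955b, Zfp292, Zfp462, Zfp609 and Zfp800. Of the genes of the table that fell, 310 of 1692 passed the same requirement.

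The number of falls depended on the scale on which libraries were compared. Across the tested genes of the table the log2 fold change fell with annotated exon length (Spearman's rho -0.72 across 2953 genes, which share the same 4 libraries and are not replicates). The Zfp genes had a median exon length of 8.03 kb, against 5.71 kb for all genes of the table and 4.16 kb for the annotated Zfp genes outside it. When the trend of exon length and GC content over the whole table was removed from each library, 17 of the 49 Zfp genes fell and 3 rose, against 20% and 19.8% of all genes (39.8% in either direction). Their median log2 fold change became -0.08, and that of all genes -0.0009. After cyclic loess normalization between libraries, 11 fell and 3 rose, against 25.6% and 25.1% of all genes (50.7% in either direction). After quantile normalization 13 fell and 2 rose, against 31.6% and 28.7% (60.4% in either direction). Cyclic loess and quantile normalization moved the median of all tested genes from -0.23 to 0.01 and -0.006, and that of the Zfp genes from -0.32 to 0.0053 and -0.0554, so that under cyclic loess its sign turned. The Zfp median lay 0.09 below that of all genes as deposited, 0.009 below it after cyclic loess and 0.05 below it after quantile normalization. Both methods assume that most genes do not change, and a table in which every gene differs need not meet that. Removal of the trend likewise sets every library to the same mean over the table. Its shift of the medians therefore includes that recentring and not the trend alone, and the parts were not separated. Falls and rises with the trend removed are relative to genes of the table of like length and GC content. At a mean of at least 10 RPKM 4 of the 5 remaining Zfp genes fell and 1 rose, against 38.6% and 61.4% of all genes.

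**Figure D2:**
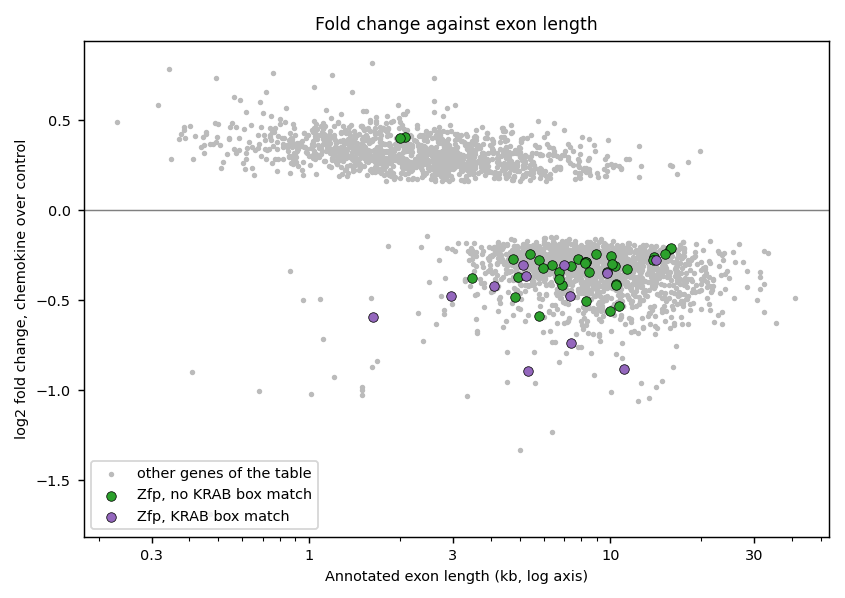
Log2 fold change (chemokine over control, log2(RPKM + 1) scale) of each tested gene against its annotated exon length in kb (log axis), with other genes of the table in grey and Zfp genes coloured by KRAB box match. Most short genes lie above zero and most long genes below it, no gene lies close to zero, and 47 of the 49 Zfp genes lie below zero.

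The table was cut into 5 equal classes of exon length, and the Zfp genes were set beside the other genes of their class. In the class of genes with 4460 to 6883 exon bases, 444 of 591 (75.1%) fell, and so did all 14 Zfp genes of that class. In the class from 6886 to 10099 bases 92.0% of the genes and all 16 Zfp genes fell, and above that 97.5% of the genes and all 13 Zfp genes. The median log2 fold change of the Zfp genes in these 3 classes was -0.36, -0.31 and -0.30, against -0.26, -0.30 and -0.34 for all genes. The shorter classes hold few Zfp genes, and their difference from the class was not tested. From 2088 to 4457 bases 3 of 4 Zfp genes fell, with a median of -0.40, against 18.6% of all genes and a median of 0.27. From 231 to 2084 bases 1 of 2 Zfp genes fell, against 2.88% of all genes. Within the 49 tested Zfp genes, rho of fold change with length was 0.21 and Pearson's r was -0.07. Most of these genes are in the 3 longest classes, where the medians of all genes ran only from -0.26 to -0.34. Both values therefore say little about the trend over the whole table. Zfp genes were also low in level, with means from 0.843 to 16 RPKM and a median of 4.12 RPKM, against a median of 14.3 RPKM over the table. In the lowest of 5 equal classes by level 92.1% of genes fell, and that class holds 30 of the 49 tested Zfp genes, all of which fell.

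Among tested genes the 4 largest falls on the log2(RPKM + 1) scale, in Zfp626, Zfp871, Zfp445 and Zfp935, were all in KRAB genes. By the plain ratio of group means Zfp780b, a KRAB gene under the level filter, fell further (0.478) than Zfp445 (0.554) and Zfp935 (0.573). All 12 tested genes with a KRAB box match fell, with a median log2 fold change of -0.45 and a range from -0.89 to -0.28. Of the 37 without a match 35 fell and 2 rose, with a median of -0.31. With the length and GC trend removed, 7 of the 12 fell and none rose, with a median of -0.31, while 10 of the 37 fell and 3 rose, with a median of -0.04. In that fit 20% of all genes fell and 19.8% rose. These are descriptions of 2 sets of genes measured in the same libraries, and the difference between the sets was not tested. Median exon length was 7.03 kb with and 8.27 kb without a match.

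**Figure D3:**
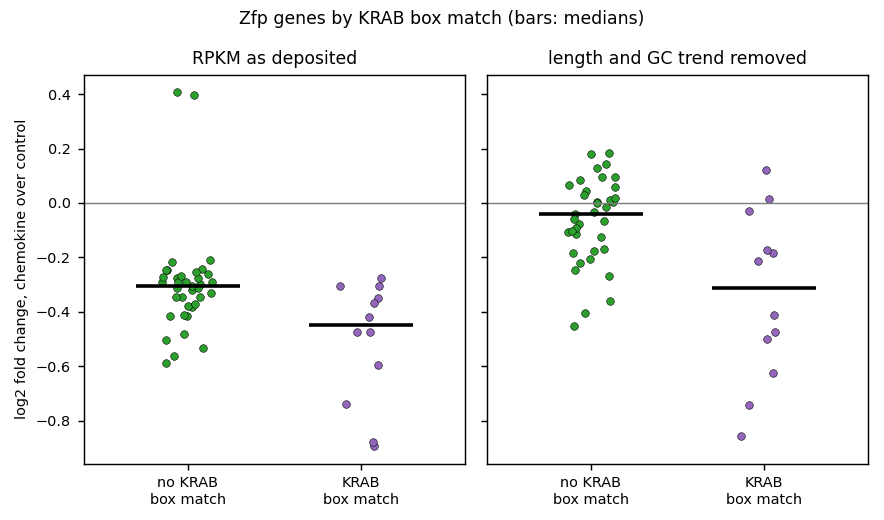
Log2 fold change of the tested Zfp genes without (37 genes) and with (12 genes) a KRAB box match, each point a gene and each bar a median, for RPKM as deposited (left) and with the length and GC trend removed (right). The bars lie at -0.31 and -0.45 on the left and at -0.04 and -0.31 on the right.

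Zfp626, a KRAB gene on chromosome 7 (27807196 to 27822916, plus strand) with 17 finger matches, was at 3.19 and 2.93 RPKM in control 1 and 2 and at 1.46 and 0.941 RPKM in chemokine 1 and 2. Both chemokine values lay far below both control values, and chemokine 2 was the lowest. Its log2 fold change was -0.89 ± 0.10 (SE; adjusted p from limma, 0.000212), the largest fall among the Zfp genes. Removing the trend left -0.74 ± 0.10. Its reads, as implied by the values, numbered 581 and 616 in the control and 238 and 182 in the chemokine libraries. They are uncertain, because the implied length of 5712 bases differs from the annotated 5329.

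Zfp871, a KRAB gene on chromosome 17 (32765496 to 32788287, minus strand) with 15 finger matches, was at 3.43 and 3.23 RPKM in the control and 1.55 and 1.17 RPKM in the chemokine libraries. The groups lay far apart beside their spread, with SDs of 0.14 and 0.267 RPKM (n = 2 per group). The log2 fold change was -0.88 ± 0.08 (SE; adjusted p from limma, 0.000142), and -0.50 ± 0.06 with the trend removed.

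The genes with known roles in imprinting and retroelement control were 3 of a list of 13, and all 3 fell. So did 57.2% of all tested genes and 95.9% of the tested Zfp genes. Zfp445, which in mouse binds imprinting control regions and helps keep their methylation, was at 8.88 and 8.54 RPKM in the control and 5.23 and 4.43 RPKM in the chemokine libraries. It fell by 44.6% of the control mean, a log2 fold change of -0.74 ± 0.07 (SE; adjusted p from limma, 0.000158). Zfp809, which in mouse recognises the primer binding site of murine leukaemia viruses and recruits Trim28 there, was the highest of all Zfp genes, at 18.5 and 19.0 RPKM in the control and 14.4 and 12.2 RPKM in the chemokine libraries. Chemokine 2 was again the lowest, and the log2 fold change was -0.47 ± 0.07 (SE; adjusted p from limma, 0.000489). Zfp568, which represses a placental transcript of Igf2 in mouse, went from 3.93 and 4.26 RPKM to 2.90 and 2.44 RPKM. Its log2 fold change was -0.48 ± 0.07 (SE; adjusted p from limma, 0.000435). All 3 still fell with the trend removed, Zfp809 by 0.62, Zfp445 by 0.47 and Zfp568 by 0.21 on the log2 scale. Of all genes 20% fell and 19.8% rose in that fit. Zfp568 did not pass after cyclic loess (-0.13, adjusted p = 0.0761), and neither Zfp568 (adjusted p = 0.0537) nor Zfp809 (adjusted p = 0.0584) passed for a fold of at least 1.2.

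Zfp780b was the only Zfp gene below the level filter, at 1.03 and 1.25 RPKM in the control and 0.628 and 0.462 RPKM in the chemokine libraries. Without the filter its log2 fold change was -0.47 ± 0.07 (SE; adjusted p from limma, 0.000486). The authors' deposited table gives it a fold of 0.476. It shares 23% of its 31-base words with other annotated genes, mostly Zfp974, so its values are uncertain. These words are all stretches of that length in the annotated transcripts of a gene. Of the 50 genes 14 share at least 10% of their words. Zfp507, Zfp532, Zfp142, Zfp697 and Zfp384 are among them, and their values are uncertain in the same way.

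Zfp84, a further KRAB gene, went from 2.52 and 2.41 RPKM to 1.55 and 1.63 RPKM. The libraries of each group were close together, and its log2 fold change was -0.42 ± 0.05 (SE; adjusted p from limma, 0.00026), and -0.41 ± 0.04 with the trend removed. It did not pass after cyclic loess (-0.07, adjusted p = 0.339), after quantile normalization (-0.09, adjusted p = 0.189) or for a fold of at least 1.2 (adjusted p = 0.0541). Zfp935 had the widest control spread of the large falls, with 3.46 and 4.75 RPKM against 2.37 and 2.34 RPKM. Its log2 fold change of -0.59 ± 0.10 (SE) did not pass after cyclic loess (-0.25, adjusted p = 0.0621) or quantile normalization (-0.27, adjusted p = 0.0755). Its implied read numbers were low, at 195 and 310 for control 1 and 2 and at 120 and 140 for chemokine 1 and 2. They are uncertain, because its implied length differs from the annotated one. Since 99.2% of its 31-base words also lie in the overlapping gene Gm49359 on the same strand, these reads cannot be assigned to it with certainty. Zfp955b, which has no KRAB match in its annotated coding sequences, went from 5.37 and 5.03 RPKM to 3.20 and 3.05 RPKM. Its log2 fold change was -0.59 ± 0.05 (SE). Other annotated genes share 63.5% of its words, Zfp955a alone 40%, and 12.2% of its exon bases overlap Zfp422-ps on the opposite strand, so its values are uncertain.

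The other KRAB genes had smaller falls. Zfp942 (log2 fold change -0.37), Zfp729a (-0.35), Zfp715 (-0.31), Zfp266 (-0.30) and Zfp26 (-0.28) all fell in the main test, and none of the 5 passed with the trend removed. Zfp942 was the only one of them in which chemokine 2, at 2.49 RPKM, lay well above chemokine 1, at 2.11 RPKM. Zfp729a, Zfp26 and Zfp942 share 27.1%, 15.3% and 11.2% of their 31-base words with other annotated genes, so their values are uncertain.

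**Figure D4:**
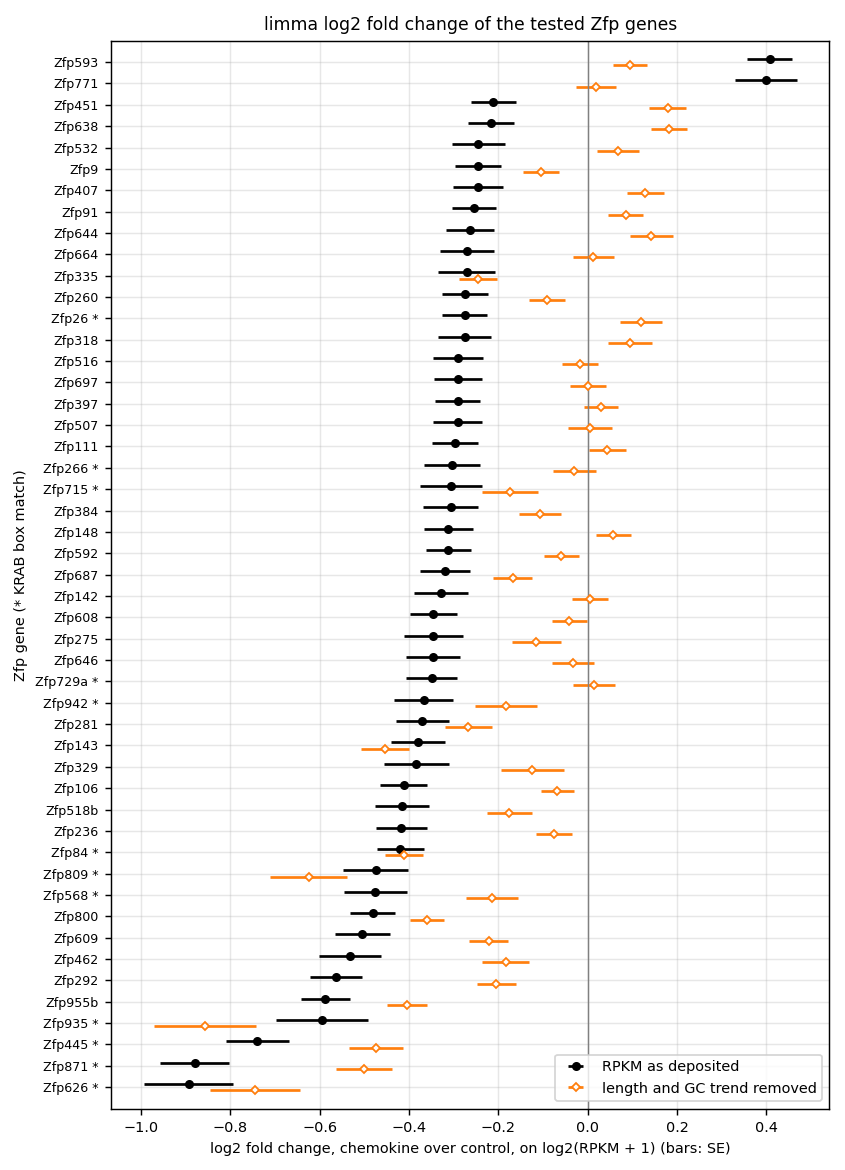
Limma's log2 fold change, chemokine over control on the log2(RPKM + 1) scale, for the 49 tested Zfp genes, with SE bars, from RPKM as deposited (filled) and with the length and GC trend of the table removed (open), and an asterisk at genes with a KRAB box match. The open points spread around zero for most genes, from -0.86 in Zfp935 to 0.18 in Zfp638.

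The largest role list was that of promoter binding and chromatin complex partners, with 16 of its 30 genes in the table. All 16 fell, with a median log2 fold change of -0.32 and a range from -0.56 to -0.21, and 8 fell and 1 rose with the trend removed. Of all tested genes 57.2% fell, and with the trend removed 20% fell and 19.8% rose. The median exon length of the 16 was 8.25 kb, and 92.0% of the genes in the length class that holds this median fell. Zfp292, one of the longest zinc finger proteins with 2698 residues, was at 4.93 and 5.25 RPKM in the control and 3.26 and 2.99 RPKM in the chemokine libraries. The chemokine values lay close together and well under both controls, and the log2 fold change was -0.56 ± 0.06 (SE; adjusted p from limma, 0.000189). Zfp462, a heterochromatin-associated protein needed in mouse development, went from 4.49 and 4.78 RPKM to 3.15 and 2.66 RPKM, a log2 fold change of -0.53 ± 0.07 (SE). Zfp609, which works with the cohesin loader Nipbl in mouse neural progenitors, went from 4.77 and 5.01 RPKM to 3.36 and 2.96 RPKM, a log2 fold change of -0.50 ± 0.06 (SE). Adjusted p by limma was 0.000291 for Zfp462 and 0.000249 for Zfp609. These 3 also fell with the trend removed, at -0.21 for Zfp292, -0.18 for Zfp462 and -0.22 for Zfp609.

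Zfp281, which binds GC-rich promoters and is known from embryonic stem cells, was among the highest Zfp genes. It was at 16.9 and 17.4 RPKM in the control and 13.7 and 12.4 RPKM in the chemokine libraries, a log2 fold change of -0.37 ± 0.06 (SE; adjusted p from limma, 0.000558), and it still fell with the trend removed (-0.27 ± 0.05). Zfp143, which binds promoters and is found at the anchors of chromatin loops, went from 7.55 and 6.75 RPKM to 5.24 and 5.27 RPKM. Its exons are short for a Zfp gene, and its log2 fold change was -0.38 ± 0.06 as deposited and -0.45 ± 0.05 with the trend removed. Zfp335, a subunit of chromatin complexes, was at -0.27 as deposited and -0.25 with the trend removed, and 23.3% of its exon bases overlap Pcif1 on the opposite strand. Zfp148, a relative of Zfp281, was at 7.31 and 7.25 RPKM against 5.90 and 5.44 RPKM, and its log2 fold change of -0.31 became 0.06 ± 0.04 with the trend removed (adjusted p = 0.279). Zfp687, Zfp592 and Zfp532, related genes whose human counterparts are found together in a protein complex, had log2 fold changes of -0.32, -0.31 and -0.24. Zfp518b and Zfp608 had -0.42 and -0.35, Zfp384 -0.31, Zfp507 -0.29 and Zfp644, a partner of the histone methyltransferases G9a and GLP, -0.26. Of these 5 Zfp518b was the one that still fell with the trend removed (-0.18). Zfp451, a SUMO ligase, went from -0.21 ± 0.05 to 0.18 ± 0.04 with the trend removed (adjusted p from limma, 0.0163). Its level was lower, at 3.76 and 3.84 RPKM in the control and 3.16 and 3.13 RPKM in the chemokine libraries.

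Genes of fat and connective tissue cell fate were thin in the table. Of 15 on the list only Zfp516, an activator of brown fat genes in mouse, and Zfp407, which supports fat cell gene expression in mouse, were present. Zfp516 was at 4.91 and 5.20 RPKM in the control and 4.10 and 3.81 RPKM in the chemokine libraries, and Zfp407 at 1.40 and 1.41 RPKM against 1.10 and 0.958 RPKM. The log2 fold changes were -0.29 ± 0.06 and -0.25 ± 0.06 (SE), and the groups did not overlap, as in every gene of the table (100%). Once the trend was removed, Zfp516 was at -0.02 ± 0.04 and did not pass. Zfp407, with 15170 exon bases, was then above zero, at 0.13 (adjusted p from limma, 0.0449). After cyclic loess both were above zero, at 0.05 and 0.11, and after quantile normalization at 0.0052 and 0.08.

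Of 18 genes whose proteins act on RNA, translation, ubiquitin or the spindle, 3 were in the table and all fell. So did 57.2% of all tested genes. In the length class from 6886 to 10099 exon bases, which holds Zfp91, 92.0% of genes fell. Above that, in the class that holds Zfp106 and Zfp638, 97.5% fell. Zfp106, an RNA-binding protein needed for motor neurons and muscle in mouse, was at 15.9 and 16.2 RPKM in the control and 12.2 and 11.4 RPKM in the chemokine libraries, a log2 fold change of -0.41 ± 0.05 (SE; adjusted p from limma, 0.000285). It overlaps the antisense gene Gm26899 over 26.1% of its exon bases, and whether reads of the 2 strands were told apart is not known. Zfp91, a ubiquitin ligase, went from 12.2 and 12.2 RPKM to 10.1 and 10 RPKM, a log2 fold change of -0.25 ± 0.05 (SE). Zfp638, a nuclear RNA-binding protein, went from 5.70 and 5.55 RPKM to 4.80 and 4.62 RPKM, -0.22 ± 0.05 (SE). With the trend removed Zfp106 (-0.07) and Zfp91 (0.09) did not pass. Zfp638, with 15810 exon bases, was then above zero, at 0.18 ± 0.04 (adjusted p from limma, 0.0133). Zfp638 was also above zero after cyclic loess (0.11) and quantile normalization (0.07).

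Among genes on none of the role lists and without a KRAB match, 14 of 16 fell and 2 rose, with a median log2 fold change of -0.29. Of all tested genes 57.2% fell and 42.8% rose. Zfp800 had 5.14 and 5.02 RPKM in the control and 3.35 and 3.36 RPKM in the chemokine libraries. The libraries of each group were nearly equal, and the log2 fold change was -0.48 ± 0.05 (SE; adjusted p from limma, 0.000189), and -0.36 ± 0.04 with the trend removed. Apart from Zfp955b and Zfp800, the falls in this set ran from -0.42 in Zfp236 to -0.25 in Zfp9 and also took in Zfp329, Zfp646, Zfp275, Zfp142, Zfp111, Zfp397, Zfp697, Zfp318, Zfp260 and Zfp664. None of these passed with the trend removed, where 20% of all genes fell and 19.8% rose.

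The 2 Zfp genes that rose are short. Zfp593, whose human and yeast counterparts take part in making the large ribosomal subunit, was at 6.25 and 6.41 RPKM in the control and 8.70 and 8.73 RPKM in the chemokine libraries. Zfp771 was at 9.75 and 10.6 RPKM in the control and 14.6 and 12.8 RPKM in the chemokine libraries, and here chemokine 1 was the higher. Their log2 fold changes were 0.41 ± 0.05 and 0.40 ± 0.07 (SE), with adjusted p of 0.000249 and 0.00079 by limma. With 2088 and 2009 annotated exon bases they are the shortest Zfp genes of the table after Zfp935. Neither passed with the trend removed, at 0.09 ± 0.04 for Zfp593 and 0.02 ± 0.04 for Zfp771. Zfp593 shares 77.9% of its exon bases with the antisense gene E130218I03Rik, and whether reads of the 2 strands were told apart is not known.

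Zfp genes lie in clusters on mouse chromosomes. Of the 50, 13 are on chromosome 7 (25% of the annotated Zfp genes in the table, when 2 listed under other names are counted, and 23% of those outside it), and 28 have another annotated Zfp gene within 1 Mb. All 13 KRAB genes do. Zfp568 lies 66.5 kb from Zfp260 and 204 kb from Zfp84, and the log2 fold changes of these 3 were -0.48, -0.28 and -0.42. Zfp626 and Zfp780b are 136 kb apart and both were among the lowest ratios of the table's Zfp genes. Zfp871 and Zfp955b, 501 kb apart on chromosome 17, had -0.88 and -0.59. Zfp266 and Zfp26, 34.9 kb apart on chromosome 9, had -0.30 and -0.28. Zfp236 and Zfp516, 218 kb apart, had -0.42 and -0.29. Zfp771 and Zfp646, 621 kb apart on chromosome 7, went opposite ways, at 0.40 and -0.35.

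Promoter windows, from 250 bases before to 50 after a RefSeq transcript start in GRCm38.p6, were found for 38 of the 50 genes, in 49 windows. The box GGGCGG, bound by Sp and Klf factors, was present on either strand in 57.1% of these windows, against 35.7% of all 32851 windows. Within the Zfp genes it was in 5 of 14 windows of KRAB genes and 23 of 35 windows of the others, which had medians of 10.5 and 21 CG dinucleotides. In the table's genes that rose and fell it was in 62.4% and 66.4% of windows. Of 10 motifs searched on both strands, the other 4 short ones were the CCAAT box CCAAT (34.7% of the Zfp windows, 37.4% of all), the ETS site CCGGAAG (12.2% and 8.86%), the E box CACGTG (8.16% and 7.15%) and the AP-1 site TGANTCA (4.08% and 7.81%). The longer ones were the NRF1 site (16.3% and 4.6%, with 13.7% and 9.13% in the table's genes that rose and fell), the cAMP response element (4.08% and 1.79%), the NF-kB site (2.04% and 0.411%), the YY1 site (2.04% and 0.633%) and the Zfp143 core (no Zfp window and 0.286%). The NRF1 site was in 8 of the 35 windows of genes with no KRAB match and in none of the 14. A match is a stretch of letters and not a shown binding site, and no match says only that these letters are not in the window. The windows of Zfp626, Zfp445 and Zfp771 are shown as examples of none, 1 and 6 matches to the Sp and Klf box, 2 from genes that fell and 1 from a gene that rose, with the box in capitals on either strand and 2 boxes of Zfp771 overlapping. They lie at chr7:27806946-27807245 (plus strand), chr9:122865957-122866256 (minus strand) and chr7:127244276-127244575 (plus strand).
Zfp626: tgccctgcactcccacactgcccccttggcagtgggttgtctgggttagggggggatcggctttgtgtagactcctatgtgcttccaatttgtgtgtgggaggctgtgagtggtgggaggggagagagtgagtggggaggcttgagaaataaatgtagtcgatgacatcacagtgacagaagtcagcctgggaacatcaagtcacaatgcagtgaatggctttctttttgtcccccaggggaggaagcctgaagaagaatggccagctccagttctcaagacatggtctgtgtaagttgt
Zfp445: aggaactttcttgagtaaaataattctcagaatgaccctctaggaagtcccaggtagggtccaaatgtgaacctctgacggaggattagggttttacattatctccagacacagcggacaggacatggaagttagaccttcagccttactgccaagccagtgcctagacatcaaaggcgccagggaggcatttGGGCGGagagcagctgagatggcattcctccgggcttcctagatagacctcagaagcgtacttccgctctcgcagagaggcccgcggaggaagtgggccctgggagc
Zfp771: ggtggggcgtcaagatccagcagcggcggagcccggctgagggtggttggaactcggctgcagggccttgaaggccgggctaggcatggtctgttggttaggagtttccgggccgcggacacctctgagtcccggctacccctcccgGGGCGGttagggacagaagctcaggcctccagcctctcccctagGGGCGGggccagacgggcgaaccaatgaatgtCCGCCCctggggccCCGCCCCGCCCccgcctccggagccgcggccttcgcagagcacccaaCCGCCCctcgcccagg

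The libraries of a group differed among themselves, the chemokine libraries more. In 43 of the 50 Zfp genes chemokine 2 was below chemokine 1, as in 58.1% of all genes of the table and 82.4% of those with an authors' fold below 1. The median log2 ratio of chemokine 2 over chemokine 1 was -0.11 in the Zfp genes and -0.22 in those with a KRAB box match, while that of control 2 over control 1 was 0.02. In 21 of the 50 control 2 was below control 1, as in 42% of the table. The mean chi-square per gene between the libraries of a pair, which is about 1 where only counting noise is at work, was 2.17 for the control and 4.78 for the chemokine pair over the 50 genes. It grows with the read number, which is uncertain for many of them. Over the 18 genes whose implied length equals the annotated one it was 1.37 for the control and 4.91 for the chemokine pair. The median log2 fold change of the 49 tested genes was -0.28 without chemokine 2 and -0.38 without chemokine 1. The directions could not change, because the groups do not overlap in any gene of the table (100%).

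Of 26 genes of the co-repressor machinery 10 were tested, of which 9 fell and 1, Sumo2, rose, with a median log2 fold change of -0.36. Their median exon length was 8.72 kb, and of all tested genes 57.2% fell, or 92.0% in the length class that holds this median. With the trend removed 1 of the 10 fell and none rose, against 20% and 19.8% of all genes. Setdb1, the methyltransferase, was at 5.52 and 5.83 RPKM in the control and 4.44 and 4.43 RPKM in the chemokine libraries, a log2 fold change of -0.30 ± 0.05 (SE; adjusted p from limma, 0.000833), which became 0.04 after cyclic loess. Cbx5, the heterochromatin protein HP1 alpha, went from 14.1 and 14.6 RPKM to 10.2 and 10.1 RPKM, -0.46 ± 0.05 (SE), and was the gene that still fell with the trend removed (-0.14 ± 0.04, adjusted p = 0.03). Fam208b, a relative of a subunit of the HUSH silencing complex, had -0.48 ± 0.05, the heterochromatin remodeller Atrx -0.44 ± 0.05, and Trim33, a relative of Trim28, -0.40 ± 0.06 (SE). Trim28 itself is not in the table and was not analysed here.

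Other zinc finger families of the table were also mostly lower, where 57.2% of all tested genes fell, and 92.0% of those with 6886 to 10099 exon bases. The Zbtb genes had a median exon length of 8.40 kb, and no difference between these families and the Zfp genes was tested. Outside the Zfp names 47 tested genes had at least 3 finger matches, of which 46 fell and 1 rose, with a median log2 fold change of -0.32. All 10 tested Zbtb genes fell (median -0.31), with Zbtb20 at -0.50, Zbtb38 at -0.43, Zbtb33 at -0.38 and Zbtb41 at -0.37. All 3 tested Zscan and Zkscan genes fell, Zkscan8 by 0.42, Zkscan1 by 0.37 and Zkscan3 by 0.28 on the log2 scale. Of 9 tested Klf, Sp and Egr genes 8 fell, led by Klf5 (-0.61), Sp1 (-0.50), Klf9 (-0.44) and Klf7 (-0.40), and 1, Klf2, rose. Regulators with other DNA-binding domains did likewise, with all 12 tested homeobox, forkhead, basic helix-loop-helix and nuclear receptor genes lower (median -0.36), among them the clock gene Clock (-0.55) and the forkhead genes Foxn3 (-0.50), Foxk1 (-0.49) and Foxj2 (-0.42). With the trend removed 2 of the 10 Zbtb genes fell, none of the 3 Zscan and Zkscan genes, 5 of the 9 Klf, Sp and Egr genes and 4 of the 12 other regulators, of which 1 rose. Of the 47 other finger genes 17 fell and 1 rose, against 20% and 19.8% of all genes.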

How the data were processed

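Per the submitters' processing notes, TopHat2 2.0.7, DESeq2 and the build GRCm38/mm10 were used, with no role or order given. How reads were counted, against which annotation and with which strand setting is not given in the sources used here. Deposited by the authors was 1 RPKM value per gene and library, a unit worked out from the values, and, in a further column, a fold (a plain ratio, chemokine divided by control). Library totals and reads were recovered as the whole numbers that fit every value (relative error at most 1.01e-14). They are certain only where the implied length equals the annotated one (18 Zfp genes). Tests used limma 3.58.1 in R 4.3.3 on log2(RPKM + 1), its prior variance allowed to follow the level. The pseudocount understates the change of low genes. Genes averaging 1 RPKM or more over the 4 libraries were tested, with Benjamini-Hochberg adjustment over the 2956 genes tested, two-sided, and the scripts were tested on simulated data. An exact two-sided permutation of 2 against 2 libraries cannot go below p = 0.333. Lengths come from the union of exons and GC content from the longest transcript of GENCODE M21. The trend was fitted with natural splines with 4 degrees of freedom for each. The Zfp genes, gene lists and patterns were chosen with earlier results of these data known. Genes named are the 12 largest falls, the rises (up to 8), the 4 highest, up to 3 of each role list and 4 of each other list, and others chosen after their values were seen. Sequences are from GENCODE M21 and RefSeq (GRCm38.p6).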

Additional observations from a re-analysis of the deposited data

How the results depend on the processing

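The number of Zfp genes that fell was 47 as reported, 48 without the level filter, 4 of 5 at a mean of at least 10 RPKM, 11 after cyclic loess, 13 after quantile normalization, 17 once the trend of length and GC was taken out, and 9 for a fold of at least 1.2. Of all genes tested 57.2% fell and 42.8% rose as reported, and 38.6% and 61.4% at a mean of at least 10 RPKM. For a fold of at least 1.2 the shares were 10.5% and 3.28%. The share of all genes that fell was 25.6% after cyclic loess, 31.6% after quantile normalization and 20% with the trend removed. The number that rose was 2 as reported, 1 at a mean of at least 10 RPKM, 0 for a fold of at least 1.2 and 1 among genes sharing under 10% of their 31-base words with others, an alternative chosen after seeing the data. At a mean of at least 10 RPKM and among those genes, fewer genes were tested. For the scalings and the trend the cause was not tested. The median log2 fold change was -0.32 as reported, -0.40 with a pseudocount of 0.1 RPKM, -0.37 at a mean of at least 10 RPKM, 0.0053 after cyclic loess, -0.0554 after quantile normalization and -0.0761 with the trend removed. Leaving out each library in turn could not change a direction, because the groups do not overlap in any gene of the table (100%). It gave medians from -0.38 (without chemokine 1) to -0.28 (without chemokine 2). The lone library of a group is then assumed to vary like the other group. Zfp36 was the 1 call of 41 single genes lost in this way. Of these 41, 22 kept their direction and call after cyclic loess, 26 after quantile normalization, 21 with the trend removed and 17 for a fold of at least 1.2. Cyclic loess reversed Zfp516 (0.0453), Zfp407 (0.11), Zfp638 (0.11), Zkscan3 (0.0528) and Setdb1 (0.0351), quantile normalization reversed Zfp516 (0.0052), Zfp407 (0.0794), Zfp638 (0.0662) and Zkscan3 (0.0206), and removal of the trend reversed Zfp407 (0.13), Zfp91 (0.0850), Zfp638 (0.18) and Zkscan3 (0.000578). With the replicate number as a block, 47 fell and 2 rose, with a median of -0.32, and no other call changed. Same-numbered libraries deviated from their group means with a correlation of -0.16 over genes, and with crossed numbers as a block, added after seeing the data, 47 fell and 2 rose. Neither block can change a direction, since both groups hold both numbers. The lowest implied read number of a Zfp gene was 120, in Zfp935, and is uncertain because its implied length differs from the annotated one. With 2 libraries per group the spread is mostly estimated from the other genes of the table.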

Other observations

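Zfp36, left out by the naming rule, encodes a protein that binds AU-rich stretches of messenger RNA and hastens their decay. It was at 45.3 and 42.7 RPKM in the control and 51.4 and 51.1 RPKM in the chemokine libraries, a log2 fold change of 0.21 ± 0.05 (SE; adjusted p from limma, 0.0026). It did not pass without control 2 (0.17, adjusted p = 0.0667) or once the length trend was taken out (0.12 ± 0.04, adjusted p = 0.0711). The letters ATTTA occur at least once in the 3′ UTR of the longest annotated coding transcript in 42 of the 50 Zfp genes (84%), and in 81% of the genes of the table with an authors' fold below 1 and 41.4% of those above 1. The median 3′ UTR of these sets was 1784, 1902 and 330 bases long. The part of either measure in the fold changes was not tested.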
